A study of Mus musculus with 9 samples.

Results

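The genes of MHC class II antigen presentation and Cd207, which encodes langerin, were followed in neutrophils at 2 stages of mouse skin carcinogenesis. The members were the 8 genes Cd74, H2-Aa, H2-Ab1, H2-Eb1, H2-DMa, H2-DMb1, Ciita and Cd207, of 34797 gene names on the array, and were found by gene name as 9 of 55681 probes, with H2-Ab1 measured by a pair of probes. All cells came from female FVB/N mice that had received the carcinogen DMBA at an age of 6 weeks and again of 13 weeks, and the promoter PMA on the skin from week 1 until week 18 to 20. They were killed at week 22. Gr-1bright cells, sorted to a purity above 98%, came from skin next to papillomas (papilloma skin, 2 arrays), skin next to carcinomas (tumor skin, 2 arrays), papillomas (3 arrays) and carcinomas (tumor, 2 arrays). No group held untreated skin, so each comparison is between tissues of mice that had all received both agents. By the methods, lesions were dissociated with collagenase IV, dispase II and DNase I, whereas surrounding skin received collagenase IV alone. Tissue and digestion therefore cannot be told apart where a lesion is compared with skin. Cells were pooled from several mice for each experiment, and the methods call the arrays of a group biological replicates. In such bulk samples, fewer cells of a type and less RNA per cell cannot be told apart.

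MHC class II molecules are pairs of an alpha and a beta chain that carry peptides from engulfed proteins to the cell surface, where CD4 T cells read them. The invariant chain Cd74 escorts the new pairs and blocks their groove, the H2-DM pair (H2-DMa with H2-DMb1) exchanges its remnant for peptide, and the coactivator Ciita switches the whole set on at promoters that hold an X box and a Y box. Dendritic cells, macrophages and B cells carry class II at steady state, and resting neutrophils carry little. Langerhans cells are the class II-positive dendritic cells of the epidermis, and langerin is their lectin of Birbeck granules.

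Levels are the log2 values of the authors' deposited table, whose column medians lay between 6.08 and 6.12. Of the 9 columns, 5 ranked the probes most like their own scanner file. The column of papilloma skin 1 correlated with its own file at a Spearman's rho of 0.587 and with that of tumor 2 at 0.923, the column of tumor 1 at 0.825 and at 0.946 with tumor 2, and papilloma 2 and papilloma 3 were each closest to the other's file, at 0.981 and 0.958. The scanner files of papilloma skin 1, tumor skin 1 and tumor 1 had 90.7 to 95.0% of probes well above background, against 43.6 to 63.6% on the other 6 arrays, and no spot was saturated. The values of the member probes are therefore also given without papilloma skin 1 and tumor 1 and from the scanner files, and list genes called against skin also without those 2 columns, whereas list levels and correlations come from the value table alone. Each probe of the class II genes was well above background on all 9 arrays, whereas that of Cd207 was so on 7, not on papilloma skin 2 or tumor skin 2. All 18 probes of the neutrophil list were well above background on every array, with S100a8 between 17.88 and 18.22 and Ly6g between 9.30 and 12.65.

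Genes of class II presentation were lower in neutrophils from carcinomas than in those from the surrounding skin. Cd74, H2-Ab1 (1 of its 2 probes), H2-DMb1 and Ciita were called lower, with levels 2.43 to 5.52 times lower, and no member was called higher. A probe was called when its adjusted p was 0.05 or less, its level differed by 1 or more on the log2 scale and its mean level was 6 or more. The 4 called probes of 9 stand beside 1.51% of all probes called lower in this comparison. An unadjusted p under 0.05 in limma was reached by 7 of 9 here, beside 14997 of all 55681 probes. Over all probes it was reached by 11540 in papilloma against papilloma skin, 8032 in tumor against papilloma and 12656 in tumor skin against papilloma skin. The median log2 fold change was -1.61 over the 9 probes and -0.02 over all probes.

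Cd74, the invariant chain, was at 12.79 and 13.55 in tumor skin, at 10.73 and 10.68 in tumor, at 13.88 and 13.08 in papilloma skin, and at 13.18, 12.01 and 13.56 in papilloma. Both tumor arrays lay below every other array, and the other 3 groups overlapped. Against tumor skin the log2 fold change in tumor was -2.47 (SE 0.50, adjusted p = 0.022, limma over all probes).

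H2-Ab1, the beta chain of the I-A molecule, was read by overlapping probes, of which probe A covers chr17:34406296-34406355 and probe B chr17:34406305-34406363 (mm9) and which share 51 bases with 1 difference, T51C, counted from the 5′ end of probe A with the base of probe A first. The stretch around that base is shown because it holds the 1 difference in their shared sequence, with the differing base in capitals:

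H2-Ab1 probe A, bases 37 to 60: caaataaacgagacTcagactctg

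H2-Ab1 probe B, bases 28 to 57: caaataaacgagacCcagactctggttatt

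Probe A was at 12.21 and 13.24 in tumor skin, at 10.55 and 10.90 in tumor, at 14.00 and 13.02 in papilloma skin, and at 13.57, 12.24 and 13.69 in papilloma. Probe B was at 12.00 and 13.06, at 10.08 and 10.33, at 13.44 and 12.44, and at 13.19, 11.87 and 13.37 in the same order. On both probes the tumor arrays were the lowest of all 9. The log2 fold change from tumor skin to tumor was -2.33 (SE 0.56, adjusted p = 0.0384) on probe B, which passed, and -2.0 (SE 0.55, adjusted p = 0.057) on probe A, which did not. The probes correlated at a Pearson's r of 0.993 over the 9 arrays and share most of their sequence, so they are 1 measurement of this gene and not 2.

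H2-Aa, the alpha chain that pairs with H2-Ab1 and is probed at chr17:34421285-34421344 (mm9), was at 9.79 and 9.86 in tumor skin, at 8.29 and 8.13 in tumor, at 11.03 and 9.95 in papilloma skin, and at 10.13, 9.61 and 11.00 in papilloma. The tumor arrays again lay below all others. The log2 fold change of -1.61 (SE 0.46, adjusted p = 0.0618) against tumor skin missed the threshold.

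H2-DMb1, a subunit of the peptide exchanger, probed at chr17:34297109-34297168 (mm9), was at 10.02 and 10.93 in tumor skin, at 8.42 and 8.15 in tumor, at 12.06 and 10.99 in papilloma skin, and at 10.67, 9.42 and 10.96 in papilloma. Its log2 fold change from tumor skin to tumor was -2.19 (SE 0.55, adjusted p = 0.0438). Its partner H2-DMa was at 9.02 and 8.47 in tumor skin, at 7.39 and 6.95 in tumor, at 10.03 and 9.06 in papilloma skin, and at 7.93, 7.92 and 9.14 in papilloma, with a log2 fold change of -1.58 (SE 0.47, adjusted p = 0.0729) that missed the threshold. For both subunits the tumor arrays were the lowest of the 9.

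**Figure D1:**
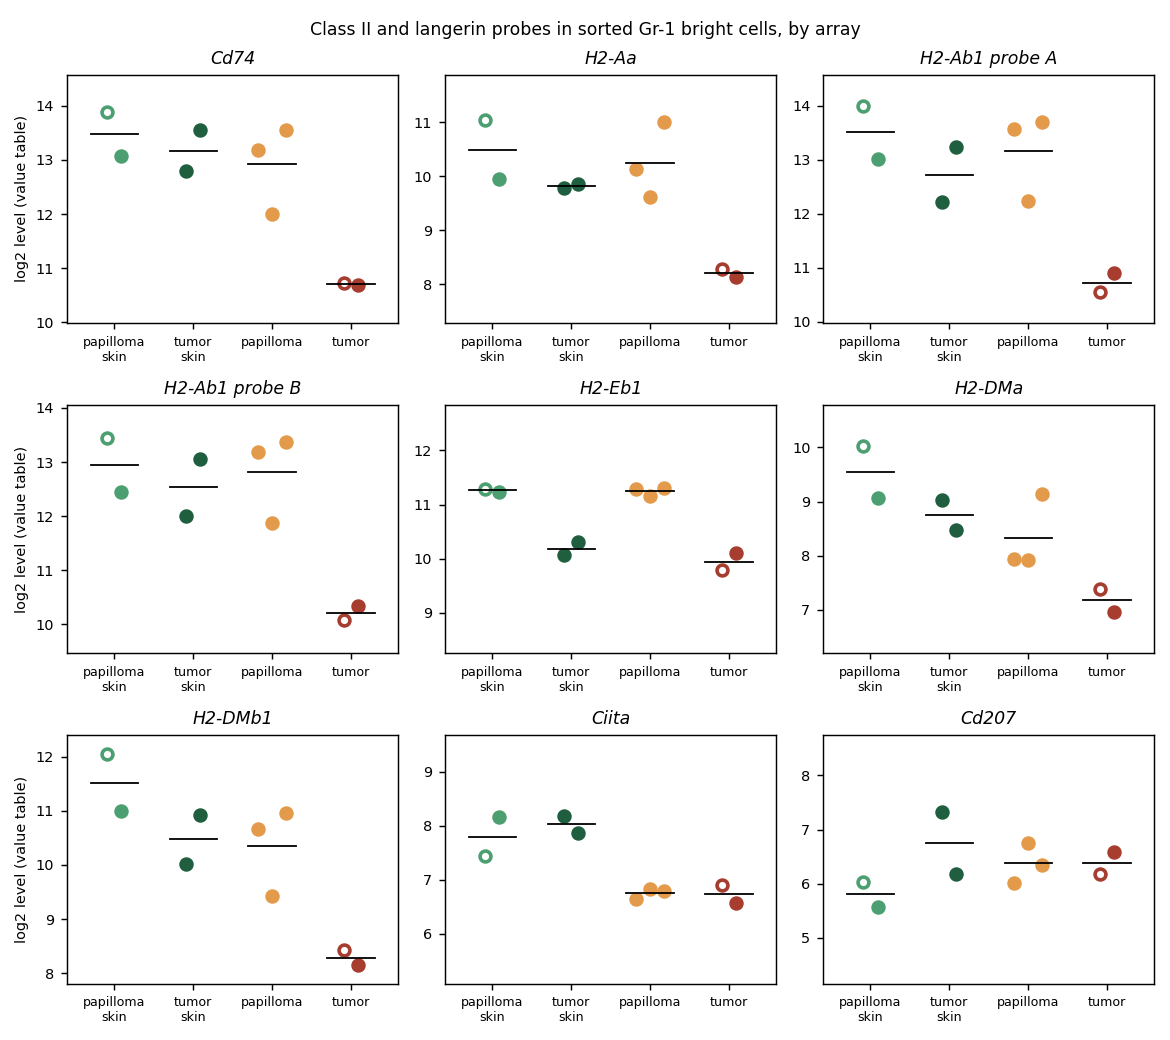
Log2 level of each probe (y axis, deposited value table) on each array, by group (x axis) with a line at the group mean and the same span of the y axis in every panel. Open circles are papilloma skin 1 and tumor 1, whose columns did not match their own scanner files. Both tumor arrays are lowest for Cd74, H2-Aa, H2-Ab1, H2-DMa and H2-DMb1, whereas H2-Eb1 separates by stage and Ciita by lesion against skin in this table.

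Ciita, the coactivator, followed another pattern and split lesions from skin at both stages. It was at 7.44 and 8.16 in papilloma skin, at 8.19 and 7.87 in tumor skin, at 6.64, 6.83 and 6.79 in papilloma, and at 6.91 and 6.57 in tumor. All 5 lesion arrays lay below all 4 skin arrays. The log2 fold change was -1.28 (SE 0.25, adjusted p = 0.0194) in tumor against tumor skin and -1.04 (SE 0.23, adjusted p = 0.035) in papilloma against papilloma skin, the latter just past the required size. Between tumor and papilloma it was -0.01 (SE 0.23, adjusted p = 0.987). The probe lies at chr16:10526568-10526627 (mm9) and holds 39 A in its 60 bases, against a median of 17 over all probes. It repeats AAAAC in 8 copies, and no other probe of the array held as many. Whether it also reads other transcripts was not tested, so its pattern rests on a repeat-rich probe.

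H2-Eb1, the beta chain of the I-E molecule, probed at chr17:34453075-34453134 (mm9), separated the columns of the value table by stage and not by tissue. It was at 11.28 and 11.24 in papilloma skin and at 11.28, 11.16 and 11.30 in papilloma, but at 10.07 and 10.30 in tumor skin and at 9.79 and 10.10 in tumor. The 4 tumor-stage arrays lay below the 5 papilloma-stage arrays, and within each stage skin and lesion overlapped. It was the member called lower in tumor than in papilloma (log2 fold change -1.30, SE 0.15, adjusted p = 0.0124) and in tumor skin than in papilloma skin (-1.08, SE 0.16, adjusted p = 0.046). Against its own skin the log2 fold change was -0.24 (SE 0.16, adjusted p = 0.39) in tumor and -0.01 (SE 0.15, adjusted p = 0.975) in papilloma. Whether FVB/N mice make the I-E protein, and how this probe reads their allele, was not tested.

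Cd207, the langerin gene, was low and showed no called difference. It was at 6.03 and 5.57 in papilloma skin, at 7.33 and 6.18 in tumor skin, at 6.02, 6.76 and 6.34 in papilloma, and at 6.18 and 6.58 in tumor. The tumor skin arrays were above both papilloma skin arrays, and the groups overlapped in the other 3 comparisons. The largest of its 4 log2 fold changes was 0.95 (SE 0.39, adjusted p = 0.201), for tumor skin against papilloma skin, and that against the own skin was 0.57 (SE 0.36, adjusted p = 0.416) in papilloma and -0.37 (SE 0.39, adjusted p = 0.591) in tumor. In the scanner files without papilloma skin 1, tumor skin 1 and tumor 1, that in papilloma was 2.78 (SE 0.52, adjusted p = 0.139). Its 4 papilloma skin and tumor skin values include both arrays on which the probe was not well above background.

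In papilloma against papilloma skin, Ciita was the single called member, 1 of 9 probes beside 1.00% of all probes called lower. H2-DMa and H2-DMb1 had log2 fold changes of -1.21 (SE 0.43, adjusted p = 0.154) and -1.17 (SE 0.50, adjusted p = 0.232). Those of Cd74, H2-Aa, H2-Ab1 and H2-Eb1 lay between -0.56 and -0.01, each smaller than its standard error except for Cd74 (SE 0.45). The arrays of the 2 groups did not overlap for 2 of 9 probes, H2-DMb1 and Ciita, both lower, beside 17.8% of all probes. Without papilloma skin 2, or without any 1 of the papilloma arrays, 0 of 9 were called in limma, with 1 to 3 at an unadjusted p under 0.05, and Ciita was then between -1.08 and -0.68.

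Tumor against papilloma gave 1 called member, H2-Eb1, beside 0.334% of all probes called lower. For 7 of 9 probes, those of all class II members except Ciita, both tumor arrays lay below all 3 papilloma arrays, beside 18.2% of all probes. Apart from H2-Eb1, their log2 fold changes ran from -1.16 (H2-DMa) to -2.61 (H2-Ab1 probe B), with standard errors of 0.42 to 0.51 and adjusted p-values of 0.0812 to 0.28. In the value table papilloma 2 was the lowest of the 3 papilloma arrays for Cd74, H2-Aa, H2-Ab1 and H2-DMb1. In the quantile-normalized scanner files it was the highest of the 3 for these genes, for Cd74 at 13.73 against 12.43 and 11.66, and papilloma 2 and papilloma 3 are the columns that each matched the other's file. Without papilloma 2 the fit called 4 probes, those of Cd74, H2-Ab1 and H2-Eb1. Without papilloma 1, papilloma 3, tumor 1 or tumor 2 it called 0 of 9 in limma, with 6 or 7 at an unadjusted p under 0.05 and H2-Eb1 between -1.46 and -1.14. The difference of H2-Eb1 was also below 0 in the scanner files, at -1.56 to -0.67.

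Tumor skin against papilloma skin gave 1 called member, again H2-Eb1, beside 0.122% of all probes called lower. The call was lost, with 0 of 9 in limma and 1 to 5 at an unadjusted p under 0.05, when any 1 of the 9 arrays was left out, while its size stayed between -1.19 and -0.96. In the scanner files this difference of H2-Eb1 was above 0, at 0.17 to 0.84, and it was -1.01 without papilloma skin 1, tumor skin 1 and tumor 1. The arrays did not overlap for 4 probes that were lower in tumor skin, beside 24.7% of all probes, and for Cd207, which was higher, beside 24.2%. In tumor against tumor skin the arrays did not overlap for 7 of 9 probes, all lower, beside 26.4% of all probes.

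Whether the lesion effect differed between the stages was tested directly. It differed for 0 of 9 probes in limma, beside 0.0144% of all probes called in the direction of a stronger decrease in tumor. An unadjusted p under 0.05 was found for 8174 of all 55681 probes and for 2 of 9 member probes. These were Cd74, with a difference of -1.90 (SE 0.67, adjusted p = 0.266), and H2-Ab1 probe B, with -2.2 (SE 0.76, adjusted p = 0.257). No other setting called a member here. The decrease of Cd74, H2-Ab1 and H2-DMb1 past the threshold at the tumor stage is therefore not shown to differ from that at the papilloma stage.

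**Figure D2:**
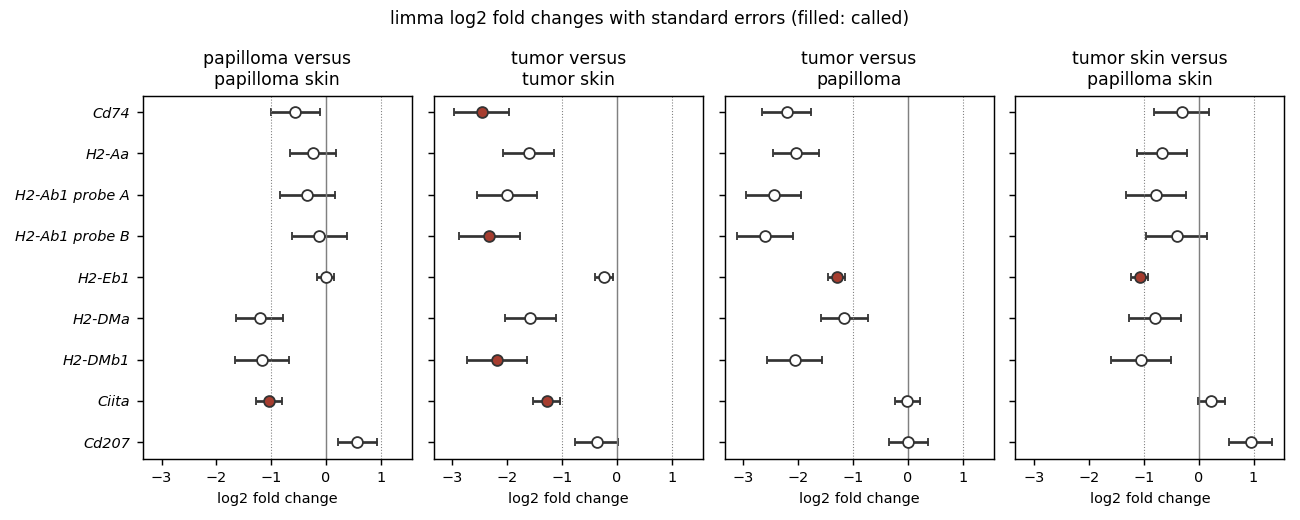
Log2 fold change (x axis) of each probe (y axis) in 4 comparisons, with bars of 1 standard error from limma on the value table and dotted lines at the required size of 1. Filled points were called. In tumor against tumor skin 4 probes are filled, all left of 0, and each other panel has 1, Ciita in papilloma against papilloma skin and H2-Eb1 in the comparisons between stages.

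The tumor result was next read without papilloma skin 1 and tumor 1, with papilloma 2 and papilloma 3 kept in the fit. The log2 fold change from tumor skin to tumor was -2.49 for Cd74, -2.2 for H2-Ab1 probe B, -2.33 for H2-DMb1 and -1.45 for Ciita, of which Ciita alone passed the test. That fit has 1 tumor array, which is assumed to vary like the other groups. The call also rests on each array of its groups. Without tumor 1 or without tumor 2 alone 0 of 9 probes were called, with 7 and 6 at an unadjusted p under 0.05, without tumor skin 1 there were 2 and without tumor skin 2 there was 1. The size of the difference moved less than the calls, with Cd74 between -2.84 and -2.09 over these 4 fits. On the 1 slide that held both tissues, the log2 difference between tumor 1 and tumor skin 1 was -2.06 for Cd74, -1.66 and -1.92 for the H2-Ab1 probes, -1.60 for H2-DMb1 and -1.27 for Ciita. With slide as a term in the model 0 of 9 were called, and 6 had an unadjusted p under 0.05, with Cd74 at -1.79.

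In the scanner files, rescaled to their 75th percentile, the same difference was -1.46 for Cd74, -1.55 and -1.64 for the H2-Ab1 probes, -2.48 for H2-DMb1 and -0.89 for Ciita, with 0 of 9 called in limma and 0 at an unadjusted p under 0.05. The direction in tumor against tumor skin was thus lower for Cd74, H2-Aa, H2-Ab1, H2-DMa, H2-DMb1 and Ciita under all 22 other settings. Many of these could not alter this difference, namely leaving out a papilloma or papilloma skin array, blocking by replicate number or changing a filter. The papilloma comparison did not keep its direction. There the 75th percentile values were 1.12 for Cd74, 1.98 for H2-Aa, 2.13 and 2.16 for H2-Ab1, 1.61 for H2-Eb1 and 1.29 for H2-DMb1, all higher in papilloma, while H2-DMa and Ciita stayed lower at -1.17 and -2.21. After ComBat, H2-Aa was called higher in papilloma (2.55, SE 0.68, adjusted p = 0.0441) and Ciita lower (-2.12, SE 0.33, adjusted p = 0.0119). The file of papilloma skin 1 was the low one, with a quantile-normalized H2-Aa of 5.10 against 10.38 on papilloma skin 2, and H2-DMb1 of 6.62 against 11.07. Without the 3 scanner files that had the most probes above background, the values were again below 0, at -0.62 for Cd74, -0.19 for H2-Aa and -0.73 for H2-DMb1.

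**Figure D3:**
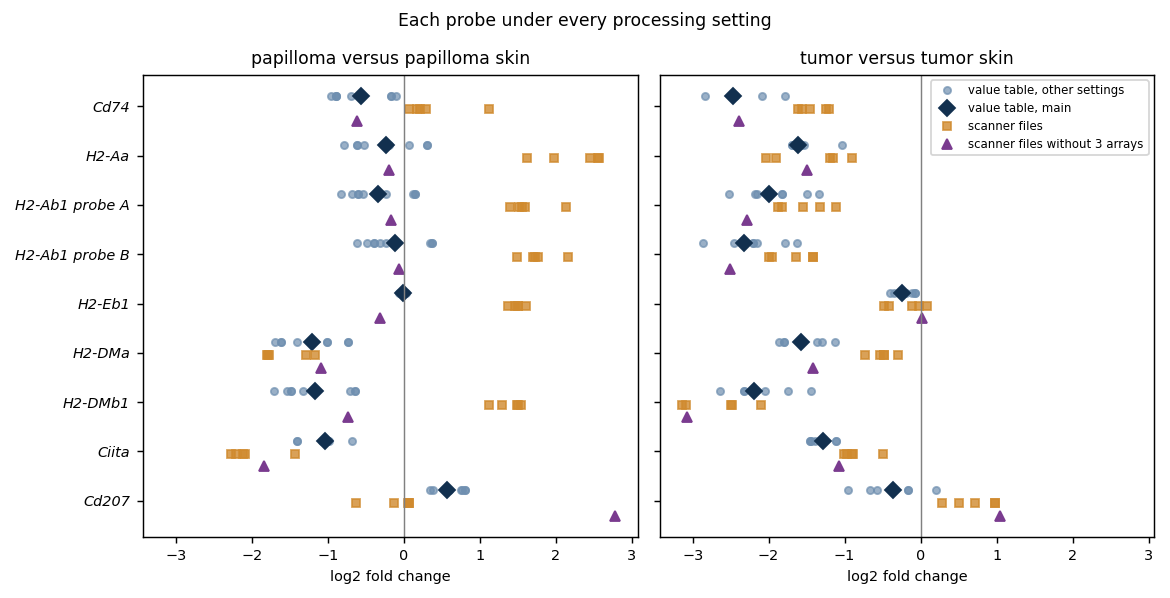
Log2 fold change (x axis) of each probe (y axis) under each processing setting, for papilloma against papilloma skin (left) and tumor against tumor skin (right). Diamonds are the values reported, circles the other settings of the value table, squares the scanner files and triangles the scanner files without papilloma skin 1, tumor skin 1 and tumor 1. In the right panel every point for Cd74, H2-Aa, H2-Ab1, H2-DMa, H2-DMb1 and Ciita lies left of 0, whereas in the left panel the squares of Cd74, H2-Aa, H2-Ab1, H2-Eb1 and H2-DMb1 lie right of 0.

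Among themselves, Cd74, H2-Aa, H2-Ab1 and H2-DMb1 moved closely together over the 9 columns, with Pearson's r of 0.933 to 0.993 between their probes. H2-DMa correlated with them at 0.762 to 0.890 and H2-Eb1 at 0.647 to 0.789. Ciita correlated with these 4 genes at only 0.243 to 0.446 and Cd207 at -0.414 to -0.211. The points are arrays that share groups, and the values are a description.

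Promoters were looked at because class II genes share the X and Y boxes to which the Ciita complex is recruited. RefSeq promoters (GRCm38.p6, 300 bases, 250 of them before the start) were at hand for H2-Aa, H2-Eb1, H2-DMa, H2-DMb1 and Cd207, with 2 for H2-DMa. The X box letters CCNNGNNAC followed after 10 to 30 bases by the Y box letters ATTGG, read on both strands, stood in 1.25% of 32851 promoters and in 1 of 6 of the members, that of H2-DMb1. With CTNGNNAC as the X box, letters chosen after the promoters had been read and partly overlapping the first, the share was 1.10% of all promoters and 3 of 6 of the members, H2-DMb1, H2-Aa and H2-Eb1. These are shown from 20 bases before the X box to 20 bases after the Y box, with both boxes in capitals:

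H2-DMb1, chr17:34153074-34153154, plus strand: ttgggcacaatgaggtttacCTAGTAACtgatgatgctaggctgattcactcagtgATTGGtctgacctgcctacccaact

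H2-Aa, chr17:34287847-34287927, minus strand: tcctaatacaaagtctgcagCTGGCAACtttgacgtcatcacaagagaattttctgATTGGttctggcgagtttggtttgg

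H2-Eb1, chr17:34305753-34305832, plus strand: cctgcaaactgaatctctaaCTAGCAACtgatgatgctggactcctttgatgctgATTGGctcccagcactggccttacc

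The boxes lay 28, 28 and 27 bases apart, and the X box began 97, 84 and 94 bases before the start. H2-Eb1 carried the same arrangement as H2-Aa and H2-DMb1, although in the value table its levels differed by stage and theirs were lowest in tumor. In the scanner files of all arrays the difference of H2-Eb1 between the skins had the opposite sign. A match of letters is a description and not a binding site.

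Of the 22 other genes of the class II pathway on the array (34 probes), 4 were called higher and 2 lower in tumor against tumor skin, with a median log2 fold change of 0.06, and 1 was called higher in papilloma against papilloma skin. The genes that rose in tumor were the lysosomal proteases Ctsl (log2 fold change 1.49, adjusted p = 0.0248) and Ctsb (1.05, adjusted p = 0.031), the tetraspanin Cd63 (1.46, adjusted p = 0.0035) and March8, a ubiquitin ligase of membrane proteins (1.35, adjusted p = 0.0156). Cd63 also rose in papilloma (1.41, adjusted p = 0.00223). March1, the ligase that removes class II from the surface, fell on 1 of 2 probes (-1.3, adjusted p = 0.0478, the other -1.26, adjusted p = 0.0543), and Cd37, a tetraspanin of leukocytes, fell on both probes (-1.4 and -1.49, adjusted p = 0.0138 and 0.0212). Against the own skin, an unadjusted p under 0.05 in limma was reached by 13 of 34 probes in tumor and 9 in papilloma. Over all 55681 probes it was reached by 14997 and 11540. The share of all probes called higher is not given for this or any later list. Counts called higher can therefore not be compared with the whole array. In the paper, most genes that differed between lesions and skin were higher in lesions.

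Among the 17 genes of class I presentation (22 probes) 0 probes were called by limma in the 4 comparisons between groups. In each, 3 to 7 of 22 had an unadjusted p under 0.05, beside 8032 to 14997 of all 55681 probes. The median log2 fold change in tumor against tumor skin was -0.05. Of the 15 genes of the interferon-gamma axis, which drives Ciita in many cells, 2 were called higher in tumor, Cxcl10 on 1 of 2 probes (2.04, adjusted p = 0.00715, the other 0.27, adjusted p = 0.364) and Socs1 (1.55, adjusted p = 0.00618). Socs1 was also higher in papilloma (1.12, adjusted p = 0.0153), where Ifng itself was lower (-1.74, adjusted p = 0.0146).

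Markers of cells that carry class II were set beside these results. The 18 dendritic cell genes (25 probes) had a mean log2 level of 7.22 to 7.40 in tumor, 7.78 to 7.92 in tumor skin, 7.83 to 8.36 in papilloma skin and 7.78 to 8.66 in papilloma, so the tumor arrays were lowest here too. The log2 of their summed level was 17.04 on both tumor arrays and 17.10 to 17.39 on the others, but 1 Siglech probe, at 16.67 to 16.98 on every array, supplied most of it. In tumor against tumor skin 1 of the 18 was called, Mgl2 (-1.0, adjusted p = 0.0221). An unadjusted p under 0.05 in limma was reached there by 11 of 25 probes. In tumor against papilloma it was reached by 14, in papilloma against papilloma skin by 10 and in tumor skin against papilloma skin by 4. Over all 55681 probes it was reached by 14997, 8032, 11540 and 12656 in that order. The median log2 fold change of the list was -0.42, -0.68, 0.27 and -0.15. In papilloma against papilloma skin Itgax, the gene of CD11c, and Ccl17 rose by 1.87 and 1.06 (adjusted p = 0.00434 and 0.0105), and Cd83 fell by 2.06 (adjusted p = 0.0345). Irf8, needed for type 1 dendritic cells, was at 11.19 and 9.04 in papilloma skin, at 9.76 and 9.95 in tumor skin, at 10.20, 8.49 and 12.24 in papilloma, and at 8.28 and 7.18 in tumor. Of the defining genes, Xcr1, Clec9a, Ccl22 and Fscn1 were not well above background on every array.

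The 14 monocyte and macrophage genes (19 probes) had a mean log2 level of 8.48 to 8.52 in tumor, 8.59 to 9.10 in papilloma, 8.96 to 9.25 in tumor skin and 9.28 to 9.85 in papilloma skin, and their log2 sum was 15.55 to 15.66, 15.59 to 15.85, 15.88 to 16.09 and 16.01 to 16.25 in that order. Only Emr1, which encodes F4/80, was called, on both probes and at both stages (-2.17 and -2.04 in tumor, adjusted p = 0.00092 and 0.00108, and -2.94 and -3.09 in papilloma, adjusted p = 0.000158 and 0.000121). Of 10 B cell genes, Cd79b was called lower in tumor (-3.06, adjusted p = 0.0162), while Ms4a1, Pax5, Blk, Ebf1 and Fcrla were not well above background on every array, and the log2 sum was 10.88 to 11.16 in tumor and 11.34 to 11.96 elsewhere. The T cell list had a log2 sum of 13.13 to 13.20 in tumor and 13.53 to 13.97 elsewhere, and 1 of its 12 genes, Cd3d, was called lower in tumor (-1.41, adjusted p = 0.00407). Against the own skin, an unadjusted p under 0.05 in limma was reached by 8 of 19 monocyte and macrophage probes in tumor and 13 in papilloma. It was reached by 4 and 3 of 12 B cell probes and by 4 and 8 of 16 T cell probes. Over all 55681 probes it was reached by 14997 and 11540. The stain before the sort included antibodies to CD3, CD11c, B220 and MHC class II, and the part of these cells in the class II result was not tested.

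The 11 other Langerhans cell genes (16 probes) lay at a mean log2 level of 9.38 to 9.65 on every array, and their log2 sum was 15.88 to 16.35. Bright probes carried most of the sum, with 1 Csf1r probe at 14.52 to 15.15 and Cd24a at 13.77 to 14.80. Epcam was at 6.18 to 6.97, Cdh1 at 5.94 to 7.01 and Ly75 at 5.49 to 6.14. A level list therefore does not show that the number of Langerhans cells was level. Limma made 0 calls against skin. An unadjusted p under 0.05 was found for 6 of 16 probes in papilloma and 2 in tumor, beside 11540 and 14997 of all 55681 probes. Mfge8 alone was called in tumor against papilloma (-1.35, adjusted p = 0.0409). Epcam, Cdh1 and Ly75, used here as Langerhans cell markers, were not well above background on every array. Of 15 keratinocyte genes, 4 were called higher in tumor and 3 in papilloma (Krt6b by 3.83 and 7.23 in tumor on its 2 probes, adjusted p = 0.00747 and 0.00131), and the list had a mean log2 level of 7.36 to 8.02 on the skin arrays and 8.26 to 9.79 on the lesion arrays. Their part in the class II result was not tested. Of the 15 neutrophil genes, 5 were called lower in tumor, namely Camp (-3.57 and -3.88 on its 2 probes, adjusted p = 0.00169 and 0.00143), Ngp (-3.39, adjusted p = 0.00133), Ly6g (-2.09, adjusted p = 0.00894), Mmp8 (-1.92, adjusted p = 0.00782) and Lcn2 (-1.46, adjusted p = 0.0129). In papilloma 3 were called lower, Camp (-4.14 and -4.12, adjusted p = 0.00043 and 0.000494), Ngp (-3.27, adjusted p = 0.000691) and Mmp8 (-1.95, adjusted p = 0.00498).

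In a fit without papilloma skin 1 and tumor 1, added after the results were known, all 41 log2 fold changes of list probes called against skin kept their sign. Of 25 probes called in tumor 19 were called again, and those of March1, March8, Socs1, Mgl2, Cd79b and Krt14 were not. Of 16 called in papilloma 10 were called again, and those of Socs1, Ifng, Ccl17, Cd83, Krt16 and 1 of the Krt6b probes were not.

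**Figure D4:**
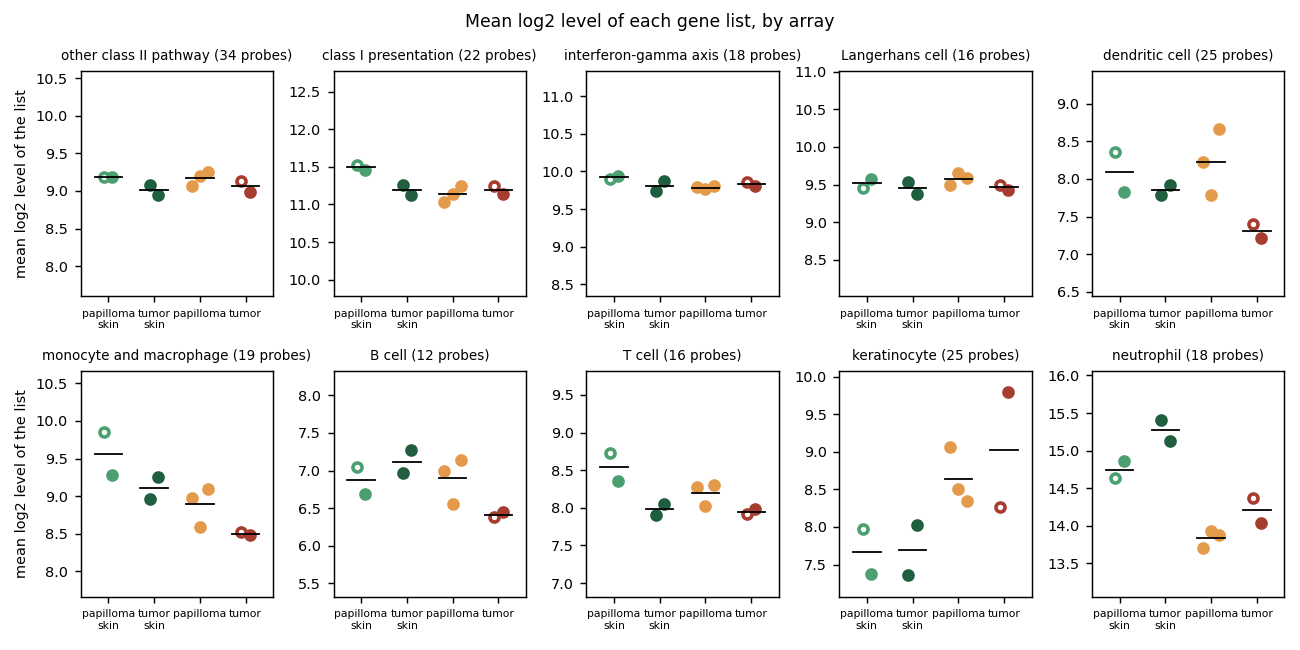
Mean log2 level of each gene list (y axis, the same span in every panel) on each array, by group (x axis), with a line at the group mean and open circles for papilloma skin 1 and tumor 1. The dendritic cell list is lowest on both tumor arrays, at 7.22 and 7.40, the class I and Langerhans cell lists are nearly level, and the mean of the keratinocyte list is higher on every lesion array than on the skin arrays.

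Among the 10 genes whose pattern was most like the mean of the 7 probes of Cd74, H2-Aa, H2-Ab1, H2-Eb1, H2-DMa and H2-DMb1 stood Cbfa2t3 (Pearson's r = 0.986 over 9 arrays), S100a4 (0.983), Lifr (0.981), Ptgir (0.973), Hfe (0.972), Crip1 (0.970), Apba1 (0.967), Spns3 (0.963) and Npepl1 (0.956). With any 1 array left out, r stayed between 0.943 and 0.993 for all 10. S100a4, a calcium-binding protein of many myeloid cells, was at 14.10 and 12.91 in papilloma skin, at 11.74 and 12.47 in tumor skin, at 12.94, 11.95 and 13.13 in papilloma, and at 10.39 and 10.41 in tumor. Cbfa2t3, a transcriptional corepressor, was at 9.98 and 9.17, at 8.39 and 9.0, at 8.73, 7.89 and 9.06, and at 6.49 and 6.44 in the same order, so that its tumor arrays were also the lowest. The genes most like Cd207 were Grik4 (0.978), Ctxn1 (0.973), Ttc9 (0.932), Acr (0.911) and Rcor2 (0.910), and none of these 5 probes was well above background on every array. With 1 array left out their r fell as low as 0.836. Like Cd207, each of the 5 was highest on tumor skin 1.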

How the data were processed

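Neutrophil RNA was measured on 9 one-color Agilent arrays on 3 slides. The authors deposited scanner output of Feature Extraction 10.7.3.1, with fluorescence intensity per spot that the software had background-subtracted, and a value table with 1 log2 value per probe. The methods name quantile normalization in limma and ComBat, but which of these steps the deposited log2 values hold is not stated. If they hold ComBat, the fits on the value table made no allowance for the degrees of freedom it uses. Their p-values could then be too small.

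The value table was tested as deposited with limma 3.58.1 in R 4.3.3, with 4 groups, 9 arrays and 5 residual degrees of freedom, which limits the precision, and Benjamini-Hochberg adjustment over 55681 probes. Arrays were grouped by their labels. The 22 alternatives comprised scanner intensities (75th percentile, quantile, normexp, slide term, ComBat), slide or replicate block, filters, and arrays left out. Named were all members, list genes called against skin (at most 5 a list by size) with defining markers, and the 10 and 5 most similar genes (mean of at least 6, range of at least 1), of which some items are not reported here. Members, lists and tests were chosen with earlier results of these data known. Probe positions (mm9) come from the scanner files and promoters from RefSeq. Tables and plots were made with matplotlib 3.10.9, numpy 2.4.6 and pandas 2.3.3 under Python 3.11.15.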

Additional observations from a re-analysis of the deposited data

How the results depend on the processing

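In papilloma against papilloma skin, scanner files at the 75th percentile, then quantile-normalized, with a slide term, with ComBat and with normexp gave 1.12, 0.07, 0.21, 0.17 and 0.29 for Cd74, 1.98, 2.45, 2.57, 2.55 and 1.62 for H2-Aa, 2.13, 1.52, 1.60, 1.56 and 1.39 for H2-Ab1 probe A, 2.16, 1.70, 1.77, 1.73 and 1.49 for probe B, 1.61, 1.46, 1.5, 1.5 and 1.37 for H2-Eb1, and 1.29, 1.49, 1.54, 1.5 and 1.12 for H2-DMb1. All had the opposite sign to the value table, and the cause was not tested. Without papilloma skin 1 and tumor 1, H2-Aa, H2-Ab1 and H2-Eb1 also turned, to 0.30, 0.15 and 0.37, and 0.01. Cd207 turned to -0.13 (quantile) and -0.63 (normexp) there, to 0.71, 0.50, 0.98, 0.98 and 0.28 in tumor against tumor skin, with 1.04 lacking the 3 arrays, and to -0.02, -0.02 and -0.16 (slide term, ComBat, normexp) between skins. H2-Eb1 turned to 0.09 (normexp) and 0.02 (3 arrays left out) in tumor against tumor skin and to 0.17, 0.38, 0.84, 0.79 and 0.22 between skins. In tumor against papilloma, Ciita turned to 0.75, 0.65, 0.47, 0.50 and 0.41, and Cd207 to -0.17 with a slide term and -0.02 lacking the 3 arrays. Leaving out 1 array, the range also spanned 0 in papilloma against papilloma skin, at -0.79 to 0.30 for H2-Aa, -0.83 to 0.15 and -0.62 to 0.37 for H2-Ab1 and -0.04 to 0.03 for H2-Eb1, in tumor against tumor skin at -0.95 to 0.20 for Cd207, and in tumor against papilloma at -0.18 to 0.16 for Ciita and -0.20 to 0.21 for Cd207. Between skins, 43 of the 54 scanner values of all 9 probes had the opposite sign.

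Calls fell to 0 in every comparison with scanner files, except that ComBat called 2 in papilloma against papilloma skin, Ciita lower and H2-Aa higher (2.55, adjusted p = 0.0441), with no allowance in the fit for the degrees of freedom that ComBat uses. Without papilloma skin 1 and tumor 1, 1 was called in tumor against tumor skin and 0 in the comparisons between stages. With dim probes left out, 0 were called between skins. Leaving out 1 array gave 0 to 1 calls for papilloma against papilloma skin, 0 to 5 for tumor against tumor skin, 0 to 4 for tumor against papilloma and 0 between skins. A slide term called 0 in each.

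With the replicate number as a block, 0 members were called in each comparison, and Ciita was 0.01 and Cd207 -0.01 in tumor against papilloma. In tumor against tumor skin Cd74 remained at -2.47, which the block could not alter since both groups held replicates 1 and 2. The difference between replicates 1 and 2 correlated over all probes at a Pearson's r of 0.275 between tumor and tumor skin. It was 0.254 between papilloma and papilloma skin, and -0.898 to -0.0396 between the other groups. Whether the numbers pair the arrays cannot be told from this, as papilloma skin 1, papilloma 2 and tumor 1 matched other files best.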
